A study of Mus musculus with 6 samples.

Results

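The reelin signalling pathway was described here through 10 genes, taken by their symbols from the expression tables of neurons sorted from embryonic mouse cortex. All 10 were found among 20367 genes. They fell into a ligand and receptor side of 3 genes (Reln, Vldlr and Lrp8) and a side inside the cell of 7 genes (Dab1, Fyn, Crk, Crkl, Rapgef1, Cdk5 and Cdk5r1). All 10 entered the tests, which took every gene above 0 in at least 1 library (19561 genes), and 9 of the 10 reached at least 10 CPM in all 6 libraries. The exception was Crkl. CPM here means a deposited value per 1000000 of its library's total.

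Reelin is a large secreted glycoprotein that guides the placement of newborn neurons in the cortex. In the embryonic cortex it is known as a product of Cajal-Retzius cells of the marginal zone, and later of interneurons. It binds the lipoprotein receptors VLDLR and APOER2 (the product of Lrp8), which leads Src family kinases to phosphorylate the adaptor DAB1 inside migrating neurons. Phosphorylated DAB1 recruits CRK and CRKL, which activate the Rap1 exchange factor encoded by Rapgef1. The kinase CDK5 with its activator p35 (Cdk5r1) acts beside this pathway in neuronal migration and also phosphorylates DAB1.

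The 6 libraries came from embryos of C57BL/6J background, bred from heterozygous Tbr2(Eomes)-GFP and homozygous DCX-mRFP parents and chosen for carrying both reporters. Cells of dissociated cortex were sorted into intermediate progenitor-derived neurons (IPN), which showed both colours, and neurons of other origin (non-IPN), which showed red alone. There was 1 library of each population at embryonic day 13.5 (E13.5), E15.5 and E16.5, so each population had 3 libraries, 1 per age. At E15.5 the RNA came from 1000000 sorted cells and was not amplified, whereas at E13.5 and E16.5 it came from 10000 cells and was amplified. Levels at E15.5 were therefore not tested against the other ages, because age and library protocol cannot be told apart. The gates rest on the Eomes and Dcx reporters and not on a cell type, and no label names separate animals or litters. The p-values therefore measure no spread between animals. They rest on the spread between these libraries, in large part pooled over genes by the fit.

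The deposited column totals ranged from 12583033 to 32522834, and 7655 to 9692 genes per library reached 10 CPM. The cortical label was checked with 4 telencephalon genes, whose summed level was 480 to 2116 CPM. The pan-neuronal list summed to 2585 to 11797 CPM. From E13.5 to E16.5, summed intermediate progenitor markers (6 genes) were at 1768, 448 and 871 CPM in IPN and 1841, 280 and 612 CPM in non-IPN. Eomes, the gene of the green reporter, was at 437, 102 and 98.4 CPM in IPN and 214, 72.5 and 72.0 CPM in non-IPN. The non-IPN libraries thus also held Eomes RNA. Summed projection neuron markers lay at 4480 to 6573 CPM in IPN and 756 to 3251 CPM in non-IPN, and summed interneuron markers at 28.7 to 80.4 CPM in IPN and 1683 to 5579 CPM in non-IPN. The non-IPN libraries also held microglial RNA (580 to 1104 CPM over 12 genes, against 1.78 to 7.05 CPM in IPN), and the non-IPN library at E13.5 held 49261 CPM of red blood cell transcripts. In sorted bulk samples such as these, fewer cells of a type and less RNA per cell cannot be told apart.

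Promoter windows are shown for the ligand, for the adaptor, and for the receptor and the adaptor partner whose levels passed the test of age. They were read 5′ to 3′ on the gene's strand from RefSeq (GRCm38.p6), which is a newer build than the mm9 assembly of the expression tables. Capitals mark an E-box, the letters CANNTG bound by bHLH factors as a class, searched on both strands.
Reln: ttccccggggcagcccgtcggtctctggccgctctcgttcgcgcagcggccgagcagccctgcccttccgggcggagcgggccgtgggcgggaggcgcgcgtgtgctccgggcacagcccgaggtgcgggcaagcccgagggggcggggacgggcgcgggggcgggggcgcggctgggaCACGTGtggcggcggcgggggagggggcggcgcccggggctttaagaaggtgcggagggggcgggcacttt
Dab1: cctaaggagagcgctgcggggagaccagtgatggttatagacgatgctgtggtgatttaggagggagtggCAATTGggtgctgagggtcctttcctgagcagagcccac
Vldlr: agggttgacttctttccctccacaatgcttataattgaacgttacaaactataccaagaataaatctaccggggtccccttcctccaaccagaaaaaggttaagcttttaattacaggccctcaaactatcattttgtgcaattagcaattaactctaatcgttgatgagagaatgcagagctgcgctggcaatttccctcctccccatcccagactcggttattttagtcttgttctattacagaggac
Crkl: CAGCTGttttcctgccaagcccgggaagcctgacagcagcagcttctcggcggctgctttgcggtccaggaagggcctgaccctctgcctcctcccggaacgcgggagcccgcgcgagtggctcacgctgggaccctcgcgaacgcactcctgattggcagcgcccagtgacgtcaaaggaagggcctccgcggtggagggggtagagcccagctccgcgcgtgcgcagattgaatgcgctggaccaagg

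The Reln window lies at chr5:22344706-22344955 on the minus strand, just upstream of the gene (ENSMUSG00000042453.14). The Dab1 window lies at chr4:103619250-103619358 on the plus strand, before the first annotated exon of the gene (ENSMUSG00000028519.16), and is the upstream one of 2 Dab1 start sites listed. The Vldlr window lies at chr19:27216234-27216483 and the Crkl window at chr16:17451735-17451984, both on the plus strand and upstream of the first exon. Reln has the most GC-rich of these windows at 80.0%, and Vldlr the least at 41.6%, against a median of 52.4% over all windows. Vldlr also has 2 start sites listed. The window of the other one (chr19:27216770-27217019) has 66.4% GC and 3 E-boxes, where the one shown has 0. An E-box was present in 7 of 12 windows found for 8 of the members, while 66.2% of 32851 windows of that length over the genome hold one. The letters GGTGTGA, a core bound by T-box proteins as a class, were in 0 of 12 member windows and in 3.3% of all windows. These matches describe letters in the windows and no binding was measured.

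Reln, the ligand, was at 613 CPM in IPN against 304 CPM in non-IPN at E13.5. At E15.5 it was at 688 CPM in IPN and 1510 CPM in non-IPN, and at E16.5 at 306 and 573 CPM. Reln was thus 2.02-fold higher in IPN at the first age, 2.19-fold lower in IPN at E15.5 and 1.87-fold lower at E16.5, and the populations overlapped. Every one of these levels was high for its library: between 96.2% and 99.8% of the detected genes were lower. The population difference over the 3 ages was -0.20 ± 0.37 on the log2 scale (SE; limma adjusted p = 0.847), with a 95% interval from -1.04 to 0.63.

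The turn in the Reln difference was tested as a change in the population difference per embryonic day. This change was -0.69 ± 0.18 log2 units per day (limma adjusted p = 0.0890), so it did not pass the threshold of 0.05 on the deposited values. It passed when the libraries were rescaled to their column totals (-0.70, limma adjusted p = 1.00e-05) or by median-of-ratios factors (-0.67, limma adjusted p = 0.00012). With column totals 3.67% of all genes were called lower and 3.72% higher in this test, and with median-of-ratios factors 3.47% lower and 4.5% higher, against 0.68% lower and 0.624% higher on the deposited values. The fit has 1 residual degree of freedom, and limma adds prior ones from the spread of all genes (median 14.5 on the deposited values). The p-values thus rest mostly on a pooled spread and not on that of Reln. With column totals and median-of-ratios factors the SE of Reln was 0.128 and 0.137, and the prior degrees of freedom were not recorded there. The unadjusted limma p-values there (3.94e-08 and 8.75e-07) lie near those of a normal distribution for these estimates and SE. These 2 passing results thus hold almost nothing of the spread of Reln itself. With the E13.5 pair left out, Reln was called lower in IPN (log2 difference -0.88, limma adjusted p = 0.0429), in a fit that called 2.07% of genes lower and 0.984% higher. Without the E15.5 pair the Reln difference was 0.24 and without the E16.5 pair 0.04 (limma adjusted p = 0.874 and 0.994).

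Markers of 2 kinds of cells known to make reelin were set beside Reln. Summed Cajal-Retzius markers (10 genes) were at 702 CPM in IPN against 240 CPM in non-IPN at E13.5, with E15.5 levels of 173 and 326 CPM and E16.5 levels of 98.4 and 145 CPM, so the sum was higher in the same population as Reln at each age. In IPN at E13.5 a single gene, Nhlh2, made up 585 CPM of that sum. Without Nhlh2, a choice made after its values were seen, the sums were 116 and 140 CPM (E13.5), 128 and 282 CPM (E15.5) and 71.9 and 121 CPM (E16.5), so the E13.5 order no longer followed that of Reln. In non-IPN a single gene, Cacna2d2, made up 143 CPM of the sum at E15.5 and 53.8 CPM at E16.5. Of the defining markers, Trp73 was at 19.3 CPM in IPN against 32.5 CPM in non-IPN at E13.5. Its levels were 32.0 and 51.6 CPM at E15.5 and 14.2 and 6.12 CPM at E16.5, so its order was that of Reln only at E15.5. Lhx1 had the order of Reln at all 3 ages, at low levels (IPN and non-IPN at 0.388 and 0 CPM, 3.54 and 7.24 CPM, 0 and 0.079 CPM). At E13.5 Lhx5 (6.01 against 1.43 CPM), Barhl2 (13.6 against 5.86 CPM) and Cacna2d2 (22.1 against 18.3 CPM) were also higher in IPN. Ebf2 (9.37 against 18.4 CPM), Ebf3 (43.5 against 60.3 CPM) and Ndnf (0 against 1.43 CPM) were lower in IPN at that age. Calb2 was at 2.00 CPM in both. The summed interneuron markers were higher in non-IPN at all 3 ages, including E13.5, where Reln was lower there, and 12 of 12 interneuron genes were called lower in IPN. The part of these cells in the Reln levels was not tested.

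**Figure D1:**
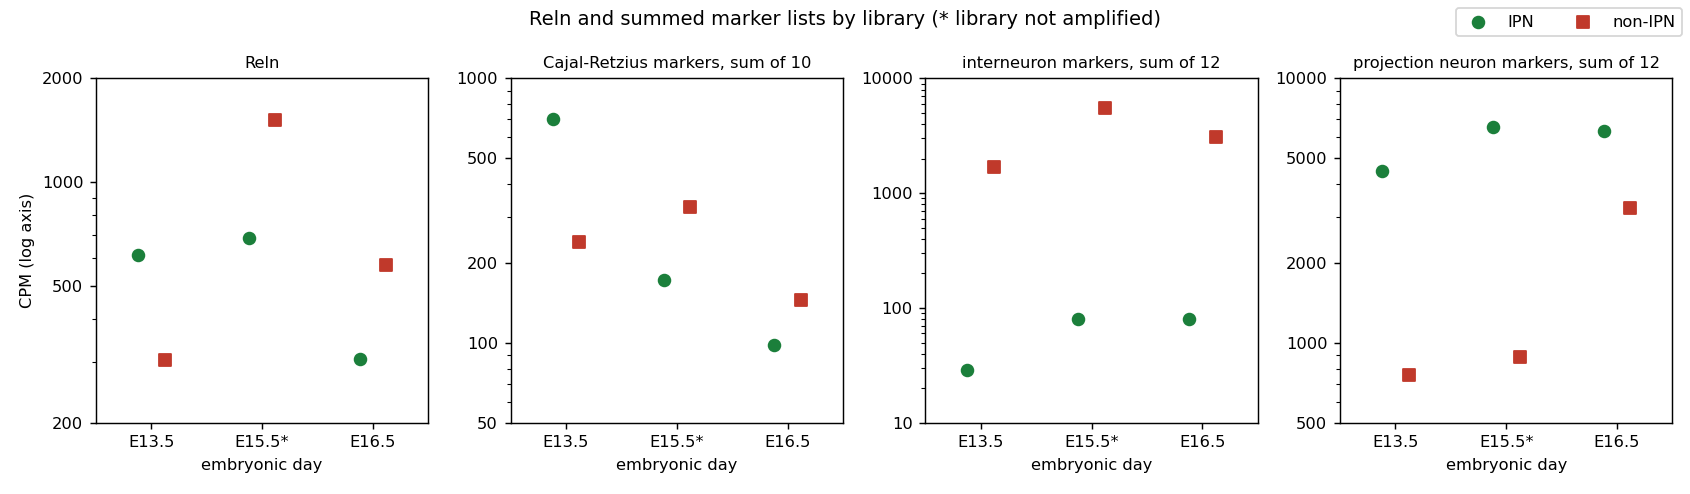
Level of Reln and summed levels of Cajal-Retzius, interneuron and projection neuron markers (CPM, log axis) by embryonic day, with 1 point per library (green circles IPN, red squares non-IPN). The order of the populations turns between E13.5 and E15.5 for Reln and for the Cajal-Retzius sum, of which Nhlh2 makes up 585 of 702 CPM in IPN at E13.5, while interneuron markers are higher in non-IPN throughout.

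Vldlr, the receptor for very low density lipoprotein and one of the reelin receptors, was at 34.2 CPM in IPN against 48.0 CPM in non-IPN at E13.5. The E15.5 levels were 136 and 138 CPM, and the E16.5 levels 164 and 138 CPM. Both E13.5 libraries were low and the other 4 were within a narrow range, and the populations overlapped. Vldlr differed between populations by 0.05 ± 0.24 log2 units (limma adjusted p = 0.943; 95% interval -0.48 to 0.58).

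Lrp8, which encodes the reelin receptor APOER2, was at 360 CPM in IPN against 169 CPM in non-IPN at E13.5. The E15.5 levels were 434 and 318 CPM, and the E16.5 levels 457 and 444 CPM. IPN was higher at all 3 ages, by 2.13-fold, 1.36-fold and 1.03-fold, with the non-IPN level at E16.5 above 2 of the IPN levels. The population difference of 0.66 ± 0.23 log2 units missed the threshold (limma adjusted p = 0.204; 95% interval 0.16 to 1.17). Its change per day was -0.33 ± 0.15 log2 units (limma adjusted p = 0.294).

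Scaled by exon length, Lrp8 exceeded Vldlr in every library. The ratio of Lrp8 to Vldlr, in CPM per kilobase of exon, was 18.6 in IPN against 6.22 in non-IPN at E13.5, and lay between 4.07 and 5.68 in the other 4 libraries. The IPN library at E13.5 therefore stood apart in the balance of the receptors, with a low Vldlr level and an Lrp8 level 2.13-fold that of its non-IPN pair.

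**Figure D2:**
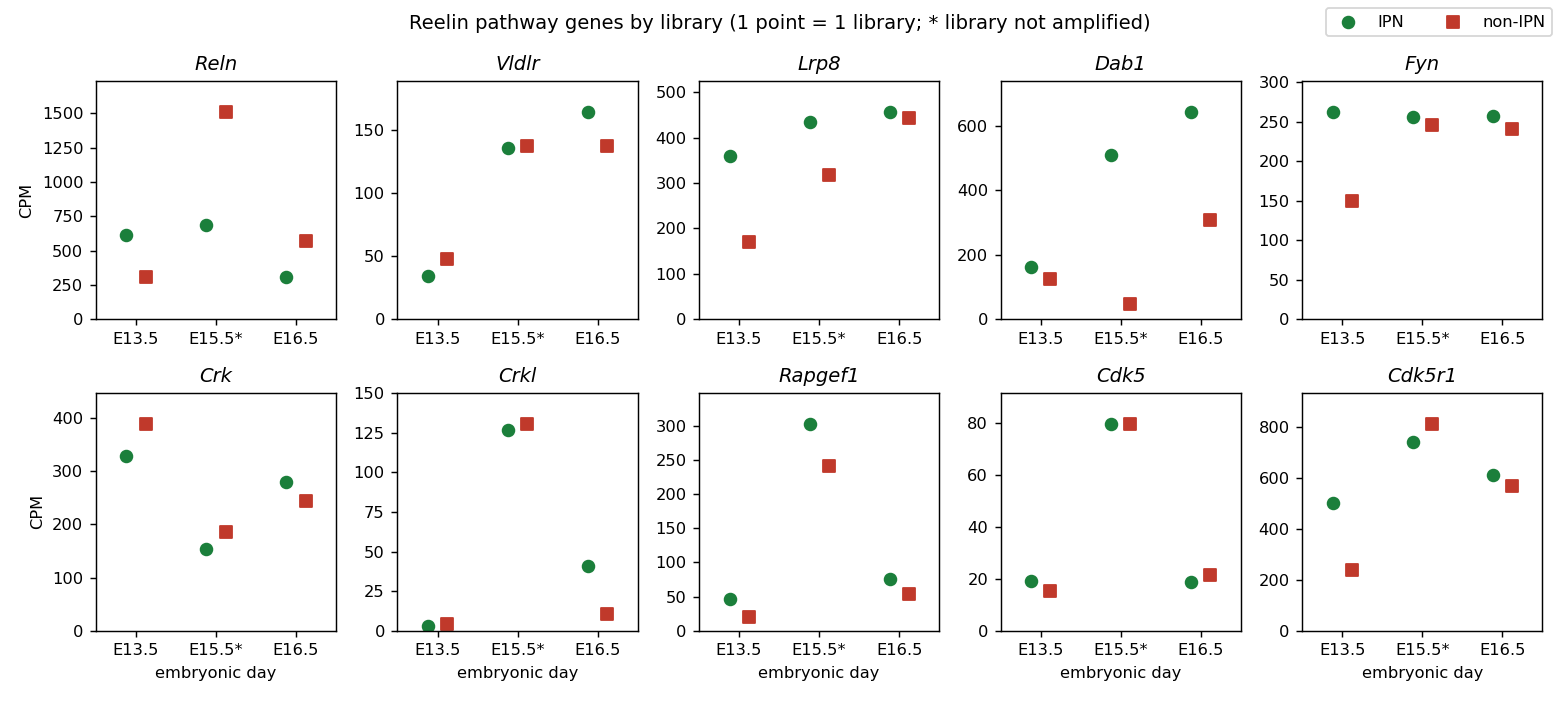
Levels of the 10 genes in CPM (linear axes from 0, a different range per gene) by embryonic day, with 1 point per library (green circles IPN, red squares non-IPN; the asterisk marks libraries that were not amplified). Dab1 at E15.5 shows the largest ratio between populations, 510 against 46.5 CPM, and the Crkl, Rapgef1 and Cdk5 levels are highest in both E15.5 libraries.

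Dab1, the adaptor that reelin receptors require to signal, was at 164 CPM in IPN against 124 CPM in non-IPN at E13.5. At E15.5 it was at 510 CPM in IPN and 46.5 CPM in non-IPN, and at E16.5 at 644 and 309 CPM. IPN was higher at all 3 ages, by 1.32-fold, 11.0-fold and 2.09-fold. The groups still overlapped, because the non-IPN level at E16.5 exceeded the IPN level at E13.5. The population difference of 1.78 ± 0.49 log2 units (95% interval 0.64 to 2.91) was the largest of the 10 and missed the threshold (limma adjusted p = 0.127). With the E13.5 pair left out it was 2.39 and passed (limma adjusted p = 0.0471). Without the E15.5 pair it was 0.91 (limma adjusted p = 0.376), the lowest of the 9 alternative settings.

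Ligand and adaptor thus had unlike profiles. The ratio of Reln to Dab1 in CPM was 3.75 in IPN against 2.45 in non-IPN for E13.5, 1.35 against 32.4 for E15.5, and 0.475 against 1.86 for E16.5. The non-IPN library at E15.5 combined the highest Reln level with the lowest Dab1 level of the 6 libraries. That library also had the highest interneuron sum, 5579 CPM, and a projection neuron sum of 884 CPM against 6573 CPM in its IPN pair. In the non-IPN libraries the projection neuron sum was 756 CPM at E13.5, with Dab1 at 124 CPM, and 3251 CPM at E16.5, with Dab1 at 309 CPM. In the unamplified E15.5 library the sum was 884 CPM, with Dab1 at 46.5 CPM. The part of this cell composition in the Dab1 levels was not tested.

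Fyn, a Src family kinase that phosphorylates DAB1, was in CPM the steadiest member in IPN, at 262, 256 and 258 CPM from E13.5 to E16.5. In non-IPN it was at 150, 246 and 241 CPM. All 3 IPN libraries lay above all 3 non-IPN libraries, though by 1.04-fold at E15.5 and 1.07-fold at E16.5. Fyn was the one member of 10 with separate populations in CPM, a pattern that 1.43% of all genes tested had. This pattern sets E15.5 against amplified libraries and depends on the scaling. With median-of-ratios factors the value of non-IPN at E16.5 (3034 divided by 0.694) exceeded that of IPN at E15.5 (8317 divided by 2.07). The populations then overlapped, and Fyn in IPN was less steady. The population difference was 0.46 ± 0.22 log2 units (limma adjusted p = 0.428; 95% interval -0.04 to 0.96).

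Crk and Crkl encode related adaptors that bind phosphorylated DAB1. Crk was at 327 CPM in IPN against 389 CPM in non-IPN at E13.5, with E15.5 levels of 154 and 185 CPM and E16.5 levels of 279 and 243 CPM. Its populations differed by 0.03 ± 0.21 log2 units (limma adjusted p = 0.964; 95% interval -0.44 to 0.50). Crkl was at 2.97 and 4.58 CPM at E13.5, with E15.5 levels of 127 and 131 CPM and E16.5 levels of 40.6 and 10.6 CPM. At E16.5 Crkl was 3.84-fold higher in IPN, and at the other ages it was 1.54-fold and 1.03-fold lower there.

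The Crkl population difference over all ages was 0.56 ± 0.48 log2 units (limma adjusted p = 0.686). Its change per day was 0.78 ± 0.24 log2 units (limma adjusted p = 0.123), and it passed with column totals (limma adjusted p = 0.0195) and with median-of-ratios factors (limma adjusted p = 0.0113). As for Reln, the p-values of this change rest mostly on a pooled spread, and with column totals or median-of-ratios factors almost wholly. Per kilobase of exon the Crk level was 117 and 90.5 times the Crkl level in the E13.5 libraries of IPN and non-IPN, 1.30 and 1.51 times in those of E15.5, and 7.33 and 24.5 times in those of E16.5. The 2 genes were near equal only in the libraries made without amplification.

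Rapgef1 encodes the exchange factor that CRK proteins bring to Rap1. It was at 46.0 CPM in IPN against 20.5 CPM in non-IPN at E13.5, with E15.5 levels of 303 and 240 CPM and E16.5 levels of 76.3 and 53.6 CPM. IPN was higher at each age, by 2.25-fold, 1.26-fold and 1.42-fold and the groups overlapped. Both E15.5 libraries were far above the rest. The population difference of 0.81 ± 0.25 log2 units (95% interval 0.25 to 1.36) missed the threshold (limma adjusted p = 0.145).

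Cdk5, a kinase active in postmitotic neurons, was at 19.1 CPM in IPN against 15.3 CPM in non-IPN at E13.5, with E15.5 levels of 79.6 and 79.3 CPM and E16.5 levels of 18.8 and 21.5 CPM. Cdk5r1, which encodes its activator p35, was at 503 and 237 CPM at E13.5, with E15.5 levels of 742 and 813 CPM and E16.5 levels of 611 and 566 CPM. The Cdk5 populations were within 1.25-fold of each other at every age, and the Cdk5r1 populations were apart only at E13.5, where IPN was 2.13-fold higher. The population differences were 0.18 ± 0.29 log2 units for Cdk5 (limma adjusted p = 0.830) and 0.49 ± 0.25 for Cdk5r1 (limma adjusted p = 0.448). Per kilobase of exon the activator was 4.62 to 16.1 times as abundant as the kinase.

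Across the 10 genes, 0 were called higher and 0 lower in IPN, in a fit that called 0.982% of all genes higher and 2.41% lower (2665 of 19561 genes had an unadjusted p under 0.05). The members' median log2 difference was 0.48, against -0.02 over all genes tested. In CPM, 4 of 10 members (Dab1, Lrp8, Rapgef1 and Fyn) were higher in IPN at all 3 ages, as were 9.64% of all genes, and 0 of 10 were lower at all 3 ages, as were 20.8%. On the authors' deposited values Cdk5 was also higher in IPN at all 3 ages, by log2 differences of 0.47, 0.06 and 0.03. The share of all genes with this pattern was not taken on the deposited values. The summed level of the 7 genes inside the cell was higher in IPN at each age (log2 ratios 0.50, 0.32 and 0.42). The sum of ligand and receptors had log2 ratios of 0.95, -0.64 and -0.32. Single genes weighed on both sums at E15.5. Inside the cell, Dab1 made up 510 of 2171 CPM in IPN and 46.5 of 1741 CPM in non-IPN. On the ligand and receptor side, Reln made up 688 of 1258 CPM in IPN and 1510 of 1966 CPM in non-IPN. The sums thus do not describe each side as a whole. In the test of change per day 0 of 10 members were called on the deposited values.

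**Figure D3:**
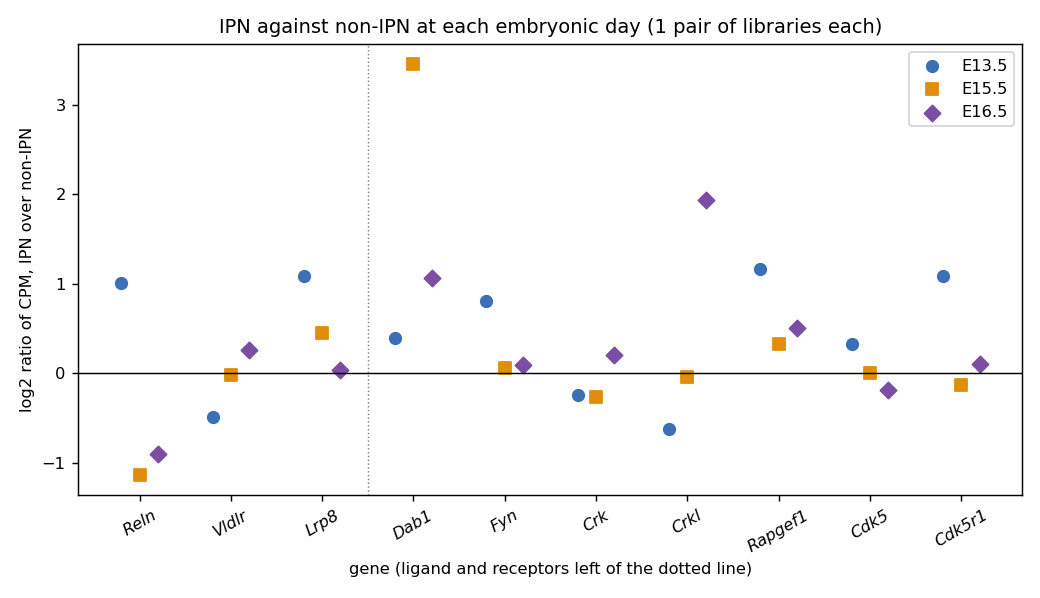
Log2 ratio of CPM, IPN over non-IPN, for each gene at E13.5 (circles), E15.5 (squares) and E16.5 (diamonds), each from 1 pair of libraries with no replicate, with ligand and receptors left of the dotted line. Reln lies above 0 at E13.5 and below it at the other ages, Dab1 reaches 3.45 at E15.5, and Dab1, Lrp8, Fyn and Rapgef1 lie above 0 at all 3 ages.

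The levels of E16.5 were compared with those of E13.5, since both ages were amplified from the same number of cells. Vldlr and Crkl rose, so 2 of 10 members were called higher and 0 lower, where 3.76% of all genes were called higher and 2.26% lower. Vldlr rose by 1.78 ± 0.29 log2 units (limma adjusted p = 0.00893), and was 4.81-fold higher in IPN and 2.87-fold higher in non-IPN. Crkl rose by 2.35 ± 0.58 log2 units (limma adjusted p = 0.0426), from levels of 2.97 and 4.58 CPM, and was 13.7-fold higher in IPN and 2.31-fold higher in non-IPN. Both calls were lost when any 1 of the 6 libraries was left out (limma adjusted p from 0.227 to 0.504 for Vldlr and from 0.303 to 0.504 for Crkl), fits in which 0 of all genes were called. Without 1 library the Crkl difference ranged from 1.16 to 3.54. Without limma's mean trend and robust fitting both missed the threshold (limma adjusted p = 0.204 for Vldlr and 0.279 for Crkl), and Crkl also missed it with log2(value + 8) (limma adjusted p = 0.106) and with median-of-ratios factors (limma adjusted p = 0.0596).

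The remaining members did not pass the age test. Dab1 differed by 1.53 ± 0.60 log2 units (limma adjusted p = 0.192), Rapgef1 by 0.94 ± 0.31 (limma adjusted p = 0.102) and Lrp8 by 0.75 ± 0.28 (limma adjusted p = 0.151). Cdk5r1 differed by 0.65 ± 0.31 (limma adjusted p = 0.252) and Crk by -0.57 ± 0.26 (limma adjusted p = 0.237). Fyn, Cdk5 and Reln differed by 0.21 ± 0.28, 0.11 ± 0.35 and -0.16 ± 0.45 (limma adjusted p = 0.701, 0.881 and 0.868). The members' median was 0.70 log2 units against 0.00 over all genes tested.

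In CPM, 6 of 10 members (Dab1, Vldlr, Lrp8, Crkl, Rapgef1 and Cdk5r1) were higher at E16.5 than at E13.5 in both populations, as were 32.3% of all genes, and 1 (Crk) was lower in both, as were 22%. Reln went opposite ways, being 2.00-fold lower at E16.5 in IPN and 1.89-fold higher in non-IPN. Lrp8 and Cdk5r1 were 2.62-fold and 2.39-fold higher in non-IPN against 1.27-fold and 1.21-fold in IPN. These single ratios have no replicate. Beside them, radial glia and dividing-cell markers summed to 1683 CPM in IPN against 5734 CPM in non-IPN at E13.5, and to 691 and 1329 CPM at E16.5, while the pan-neuronal sum went from 5453 to 8064 CPM in IPN and from 2585 to 9011 CPM in non-IPN. Their part in the age differences was not tested.

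**Figure D4:**
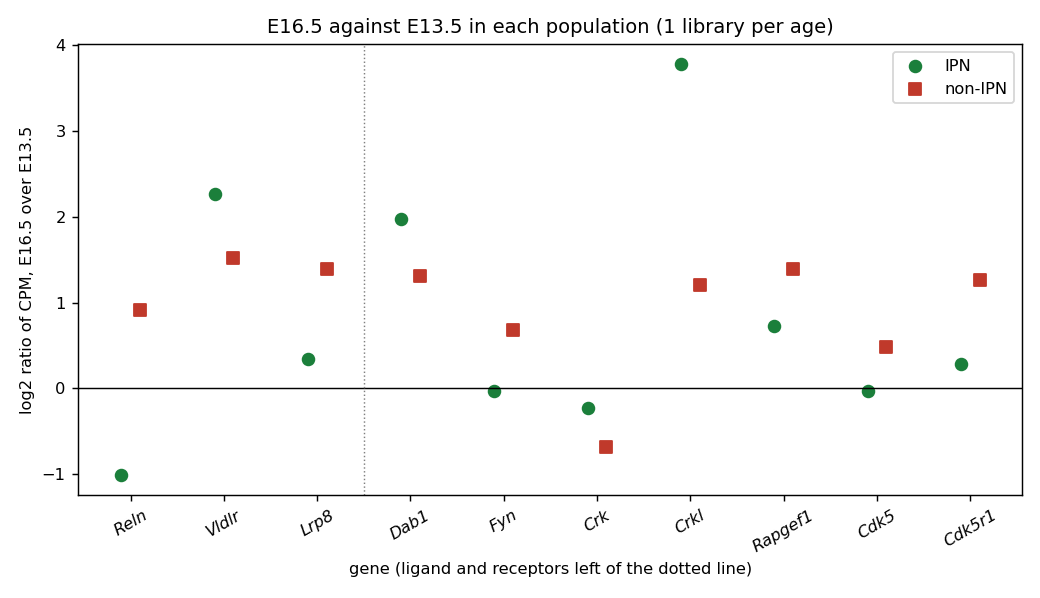
Log2 ratio of CPM, E16.5 over E13.5, for each gene in IPN (green circles) and non-IPN (red squares), with 1 library per age and population. Reln lies below 0 in IPN and at 0.92 in non-IPN, and Crkl in IPN has the highest ratio, 3.77.

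The E15.5 libraries, made without amplification, held the highest CPM levels of 5 members in both populations, above all 4 amplified libraries. These were Reln, Crkl, Rapgef1, Cdk5 and Cdk5r1. This pattern was shared by 27.6% of all genes tested. The gap in CPM was widest for Cdk5, Rapgef1 and Crkl, whose lower E15.5 level was 3.70, 3.15 and 3.12 times the highest amplified one. It was 1.22 times for Cdk5r1 and 1.12 times for Reln. With median-of-ratios factors Reln and Cdk5r1 lost the pattern. Reln in IPN at E15.5 (22371 divided by 2.07) was then below IPN at E13.5 (9486 divided by 0.679). Cdk5r1 in IPN at E15.5 (24145 divided by 2.07) was below IPN at E16.5 (8928 divided by 0.696). Crk went the other way, with its lowest levels at E15.5.

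Per kilobase of exon, the median level over the 6 libraries was highest for Cdk5r1 (141 CPM per kilobase, range 56.9 to 195). Lrp8 (84.2), Fyn (65.4), Crk (55.2), Reln (50.7) and Dab1 (41.1) followed, with ranges that overlapped their neighbours'. Vldlr was at 16.5, Cdk5 at 9.86, Rapgef1 at 9.35 and Crkl at 5.08 CPM per kilobase, and these ranges overlapped too. Exon lengths are those of GRCm38 gene models and may differ from those used in counting.

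The genes whose profile over the 6 libraries was most like that of Reln, among 9348 genes compared by Pearson's r of log2(CPM + 1), were Inpp5e (r = 0.996), Tia1 (r = 0.985) and Chmp4b (r = 0.984). Inpp5e ranged only from 52.9 to 87.2 CPM, so the likeness is one of shape and not of size. Closest to Dab1 were Fat4 (r = 0.977), Ankrd6 (r = 0.976) and Lrrc4c (r = 0.970). Fat4 was at 628 CPM in IPN and 97.1 CPM in non-IPN at E15.5, and at 737 and 395 CPM at E16.5. The 6 points share library and protocol.

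The wider pathway was described by 7 lists with 112 tested genes outside the 10. In the population comparison 3 were called higher in IPN and 7 lower (all genes: 0.982% and 2.41%), and 102 were not called, with a median log2 difference of 0.13. Of the extracellular partners, Adamts3, a protease that cleaves and inactivates reelin, was at 118 CPM in IPN against 37.2 CPM in non-IPN at E13.5, with E15.5 levels of 235 and 20.2 CPM and E16.5 levels of 275 and 133 CPM. Adamts3 was higher in IPN by 2.22 ± 0.38 log2 units (limma adjusted p = 0.0107), and Dscam, an adhesion receptor, by 1.96 ± 0.45 (limma adjusted p = 0.0411).

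The genes called lower in IPN were Apoe, Thbs1, Lyn, Dab2, Nck1, Cdk14 and Apbb1ip. Apoe, a lipid carrier that can bind the reelin receptors, was at 0.84, 5.35 and 1.64 CPM in IPN and at 94.8, 233 and 33.7 CPM in non-IPN from E13.5 to E16.5 (log2 difference -5.35 ± 0.50, limma adjusted p = 0.000344). Thbs1, a thrombospondin reported as another ligand of these receptors, differed by -4.34 ± 0.49, the Src family kinase Lyn by -5.55 ± 0.64 and the adaptor Dab2 by -4.18 ± 0.63 (limma adjusted p = 0.0014, 0.00128 and 0.00473). Nck1 differed by -1.57 ± 0.36 and Cdk14 by -1.87 ± 0.40 (limma adjusted p = 0.0423 and 0.0290). In the same libraries 12 of 12 microglial markers were called lower in IPN, with 6 of them listed at 0 in IPN at E16.5, and their part in the Apoe, Lyn and Dab2 levels was not tested. None of these 10 calls held without the age term or without limma's mean trend and robust fitting, fits in which 0 of all genes were called. Without the E15.5 pair 1 of 10 held, in a fit that called 54 of 19309 genes.

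In the age comparison 12 of the 112 genes rose from E13.5 to E16.5 and 3 fell (all genes: 3.76% and 2.26%), and 97 were not called, with a median of 0.39. The microtubule genes Mtap1b and Dcx rose by 1.86 ± 0.21 and 1.69 ± 0.31 log2 units (limma adjusted p = 0.00165 and 0.0142), and the receptor Lrp1, a relative of Lrp8, by 1.94 ± 0.28 (limma adjusted p = 0.00505). Src, which like Fyn can phosphorylate DAB1, rose by 1.80 ± 0.34, and Cbl, a ubiquitin ligase, by 1.48 ± 0.35 (limma adjusted p = 0.0146 and 0.0360). Rap1gap2 rose by 2.88 ± 0.55, Cdk16 by 1.96 ± 0.36 and Cdkn1b by 1.31 ± 0.34 (limma adjusted p = 0.0152, 0.0141 and 0.0467).

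Among the genes that fell were Rnf7 and Tceb2, components of the ubiquitin ligase that degrades phosphorylated DAB1, by -1.28 ± 0.25 and -1.03 ± 0.27 log2 units (limma adjusted p = 0.0172 and 0.0487). Nde1, a dynein partner of dividing progenitors, differed by -3.68 ± 0.71 (limma adjusted p = 0.0161). These calls did not hold when any 1 library was left out, and neither did the call of any other gene. With log2(value + 8) 7 of the 15 calls held, in a fit that called 529 of 19561 genes. Dcx, Cbl, Cdkn1b, Tceb2 and Nde1 were among those lost. Tceb2 was also lost with column totals, and Cdkn1b with median-of-ratios factors.

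**Figure D5:**
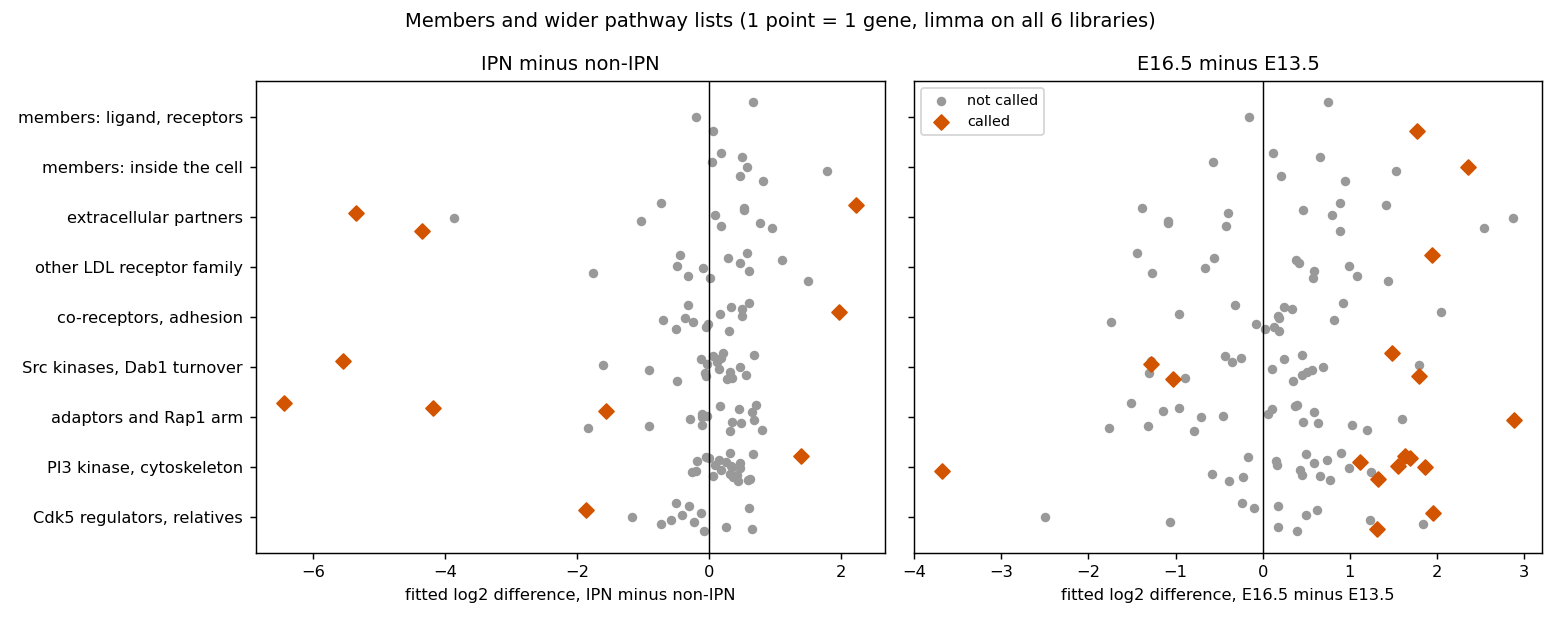
Fitted log2 differences of the 10 members and of 112 genes in 7 wider lists (rows), for IPN minus non-IPN at left and E16.5 minus E13.5 at right, with 1 point per gene and orange diamonds for genes with a limma adjusted p under 0.05. The members have 0 called genes at left and 2 at right (Vldlr and Crkl), and most called genes of the wider lists lie below 0 at left and above 0 at right.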

How the data were processed

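RNA from 2 sorted populations at 3 ages (6 libraries) was sequenced on libraries made with Illumina's TruSeq kit, with amplification by the NuGEN Ovation system at E13.5 and E16.5, per the labels' protocols. The submitters' processing notes name CASAVA 1.9, TopHat 1.2.0, SAMtools 0.1.18, edgeR and the build mm9. The authors deposited 1 signal value per gene and library, a whole number that is a scaled count and not a raw one. How the counts were scaled is not given in the sources used here. The upper quartiles of the deposited values nearly coincide within each age (444 and 443, 1502 and 1501, 438 and 440), although the totals differ, so depth cannot be read from the totals. Because raw counts were not at hand, no count model was used.

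Of 20373 rows, 3 symbols listed 2 times were left out, which gave 20367 genes. The linear model tool limma 3.58.1 (R 4.3.3; mean trend, robust) was fitted to log2(value + 1) of 19561 genes above 0 in any library, with age and population as terms (2 residual degrees of freedom) and, in a second fit, a change of the population difference per day. Each gene's spread was moderated toward that of genes of like level. The median prior degrees of freedom were 8.3 in the first fit and 14.5 in the second. P-values were adjusted by Benjamini-Hochberg over all genes and called below 0.05. Fold changes on this scale understate those of low genes. The 2 libraries of an age form a pair, being sorted and prepared under 1 protocol. CPM ratios were computed with Python 3.11.15.

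The members and all lists were chosen with earlier results of these data known. All members were described. From each wider list up to 2 called genes per direction and comparison with a mean of at least 10 CPM were named, those with the largest change, and Apbb1ip was named after its values were seen. The values of 1 further called gene are not reported here. Of 223 list genes 222 were matched, some under older symbols. Promoter windows hold 250 bases before a RefSeq start and were cut at the first annotated exon. Alternatives were another pseudocount (8), column totals, median-of-ratios factors, a minimum mean of 10 CPM, no mean trend, no age term, and each age pair or library left out.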

Additional observations from a re-analysis of the deposited data

How the results depend on the processing

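The number of genes called between populations was 664. It was 364 with log2(value + 8), 358 among genes with a mean of at least 10 CPM, and 54 to 595 with 1 age pair left out. It was 0 without limma's mean trend and robust fitting (1946 genes at an unadjusted p under 0.05). Without the pairing by age (no replicate block) the limma count was 0 (676 at an unadjusted p under 0.05). The number called between E16.5 and E13.5 was 1178. It was 529 with log2(value + 8), 0 without trend and robust fitting (3414 at an unadjusted p under 0.05), and 0 in limma fits with any 1 library left out (1809 to 4025 at an unadjusted p under 0.05). The number called for a change per day was 255. It was 19 with log2(value + 8), 1445 with column totals, 1559 with median-of-ratios factors, 135 among genes with a mean of at least 10 CPM, and 0 in limma without trend and robust fitting (2321 at an unadjusted p under 0.05). The cause of these changes was not tested. Column totals moved the median population difference of all genes from -0.02 to -0.15. A change per day could not be refitted without a pair, for lack of residual degrees of freedom. For Dab1, Lrp8, Rapgef1, Fyn, Cdk5 and Cdk5r1 the population difference kept its sign in all 9 alternatives, while Reln, Vldlr and Crk changed sign in 2 and Crkl in 1, none of which were called there. Vldlr and Crkl kept the sign of their age difference in all 11 alternatives, with adjusted p from 0.00696 to 0.504 and from 0.0387 to 0.504. With 1 library per population and age, precision is limited by the number of libraries, and no counting error can be given for scaled values.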
